A study of Mus musculus with 4 samples.

Results

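The core myelin genes are 9 genes that oligodendrocytes use to build and hold the myelin sheath: *Mbp*, *Mobp*, *Mag*, *Mog*, *Cldn11*, *Opalin*, *Mal*, *Cnp* and *Ugt8a*. They were taken by symbol from the gene names of the deposited matrices, and all 9 were found among 21933 genes. Their unique molecular identifiers (UMIs, 1 per captured RNA molecule) were followed in single nuclei of the cerebral cortex of mice that lack the creatine transporter, in oligodendrocytes, in their earlier stages, and in classes that are not known to make myelin. The question was whether any of them differed between genotypes.

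Nuclei came from the whole cortex of the right hemisphere of male mice at postnatal day 100. The 2 control animals were wild type (CrT+/y), and the 2 CrT-KO animals were hemizygous for a deletion within *Slc6a8*, the X-linked gene of the creatine transporter (CrT-/y). The deletion is present in every cell of the body, no animal was treated, and each library held the nuclei of 1 animal, sorted by flow cytometry. With 2 animals a group, the exact permutation test over libraries could not go below p = 0.33, and only the fit across all genes could reach a lower p.

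The 4 libraries held 51507483 to 65240843 UMIs in 8282 to 9295 nuclei. After 1236 likely doublets had been removed, clusters were named from marker genes that did not include the 9 genes, and a class such as oligodendrocytes means nuclei like that type by its markers. The inhibitory class was not limited to cortical interneurons. Its clusters included 2188 nuclei led by *Drd2*, a striatal marker, 1322 led by *Baiap3*, 625 led by *Igfbpl1* and 356 led by *Drd3*. Oligodendrocytes numbered 1092 and 1448 in controls, against 1077 and 1348 in CrT-KO, with 1517754 to 2098052 UMIs in their sums and medians of 1209 to 1406 UMIs per nucleus. The 23 oligodendrocyte markers, such as *St18*, *Aspa* and *Ermn*, were all detected there. *Slc6a8* gave 278 and 284 UMIs in the named nuclei of controls and 82 and 67 in those of CrT-KO, lower in both. A total of 96 barcodes occurred in 2 libraries, and 3648 nuclei stayed unnamed.

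Myelin is a spiral of oligodendrocyte membrane wound around an axon, rich in lipid and poor in most other proteins. Oligodendrocyte precursors (OPCs) divide and persist in the adult cortex. They pass through a short newly formed stage marked by *Bmp4*, *Gpr17* and *Enpp6*, and turn on myelin genes as they mature. The lipid and protein parts of the sheath are made in the cell body and its processes, and some messages, *Mbp* above all, are carried out to the sheath, so nuclei show the freshly made RNA and not the pool at the membrane.

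Levels of different genes were compared per kilobase of gene body, as the counts covered whole gene bodies, in oligodendrocytes over the 4 libraries. Whether counts from the 3' kit used here grow with gene body length was not tested, so the order below holds on this scale only. *Mog*, a surface glycoprotein of the outermost myelin layer (chr17:37010743-37023398 of GRCm38, minus strand), was highest at 72.5 CPM per kilobase (range 70.0 to 77.8), CPM being the UMIs of a gene per 1000000 UMIs of the population in a library. *Mobp*, a small basic protein of compact myelin (chr9:120149707-120181484, plus strand), followed at 52.7 (43.6 to 63.1), and its range did not touch that of *Mog*. *Mag*, the adhesion molecule that faces the axon (chr7:30899176-30914873, minus strand), stood at 34.0 (29.5 to 40.8). *Cldn11*, the claudin of the tight junctions between myelin layers (chr3:31149920-31164324, plus strand), stood at 29.6 (25.5 to 32.4). *Mbp*, which joins the inner faces of the membrane, stood at 28.3 (24.2 to 32.2). Its length was taken as the whole locus of 110.5 kb, which holds a longer transcription unit, golli, described further below. Counted over a shorter span *Mbp* would stand higher, so its place below *Mog* depends on the length used. On this scale *Mag*, *Cldn11* and *Mbp* did not separate from one another. Without the division by length *Mbp* was the highest member, at 2677 to 3554 CPM, and *Mog* stood at 886 to 985 CPM. *Opalin*, a transmembrane glycoprotein of the central sheath (chr19:41061710-41077113, minus strand), gave 18.8 (16.7 to 22.9). *Mal*, a proteolipid of lipid-rich membrane domains (chr2:127633226-127656695, minus strand), gave 12.4 (10.3 to 14.8). *Ugt8a*, the enzyme that makes galactosylceramide, the leading lipid of myelin (chr3:125865271-125938619, minus strand), gave 7.86 (6.65 to 8.83). *Cnp*, an enzyme of the non-compacted channels of the sheath (chr11:100574904-100591729, plus strand), was lowest at 3.95 (3.72 to 4.36). *Cnp* overlaps *Dnajc7*, a widely made co-chaperone gene on the opposite strand, and whether the authors' counting used the strand was not given in the sources used here, so its counts are uncertain.

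The promoters of 3 members are printed because the values below turn on them: *Mobp* had the lowest p of the 9 genes between genotypes, *Opalin* differed most between the oligodendrocyte sub-clusters, and *Mag* had the largest difference upward. Each run is 300 bases of RefSeq sequence on the build GRCm38.p6, from 250 bases before to 50 after the start, read along the gene's own strand. Capitals mark ACAAAG or its reverse complement CTTTGT, letters within the core that factors of the SOX family, such as Sox10, bind.
Mobp, chr9:120149492-120149791, plus strand: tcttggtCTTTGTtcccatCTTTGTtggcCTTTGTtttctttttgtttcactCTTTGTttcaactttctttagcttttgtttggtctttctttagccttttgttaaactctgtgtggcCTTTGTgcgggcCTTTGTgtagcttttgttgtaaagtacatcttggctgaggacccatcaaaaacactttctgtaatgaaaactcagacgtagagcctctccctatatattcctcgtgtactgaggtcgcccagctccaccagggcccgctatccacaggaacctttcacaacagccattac
Opalin, chr19:41077064-41077363, minus strand: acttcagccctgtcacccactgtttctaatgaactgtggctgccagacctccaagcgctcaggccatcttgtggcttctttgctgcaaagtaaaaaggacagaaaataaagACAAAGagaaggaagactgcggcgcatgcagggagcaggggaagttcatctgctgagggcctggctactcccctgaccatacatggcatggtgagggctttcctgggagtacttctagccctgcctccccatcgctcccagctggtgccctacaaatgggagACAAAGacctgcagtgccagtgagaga
Mag, chr7:30914814-30915113, minus strand: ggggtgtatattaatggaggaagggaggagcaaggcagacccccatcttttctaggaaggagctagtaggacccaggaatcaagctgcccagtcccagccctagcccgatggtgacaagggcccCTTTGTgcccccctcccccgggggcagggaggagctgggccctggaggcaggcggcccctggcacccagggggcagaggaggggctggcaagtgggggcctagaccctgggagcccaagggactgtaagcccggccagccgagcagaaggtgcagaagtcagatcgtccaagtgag

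The *Mobp* window held 6 matches, all as CTTTGT, at 243, 231, 221, 198, 132 and 120 bases before the start. Of 32851 promoter windows in the RefSeq table, 18.7% held at least 1 match and 1 window held 6 or more, which was that of *Mobp*. *Opalin* held 2 and the printed *Mag* window and *Cnp* 1 each, and the windows of *Mal*, *Cldn11*, *Ugt8a* and *Mog* held none. *Mag* also had a window at chr7:30914873-30915172, which shared its match, and 1 at chr7:30914272-30914571, which held 0. Matching was possible for 8 of the 9 members, and *Mbp* was not among them. A match is a description of the letters only.

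In oligodendrocytes no member passed the test between genotypes. *Mobp* had the lowest p: it stood at 2006 and 1802 CPM in controls, against 1506 and 1385 in CrT-KO, a log2 difference of -0.42 (SE 0.11, edgeR quasi-likelihood test, adjusted p = 0.122 over all genes). Both CrT-KO libraries lay below both controls, and the group means of 1904 and 1445 CPM differed by 24.1% of the control mean. *Mbp*, the most abundant member in these nuclei, stood at 3554 and 3175 in controls, against 3111 and 2677 in CrT-KO, a log2 difference of -0.24 (SE 0.11, edgeR adjusted p = 0.661), again with no overlap.

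**Figure D1:**
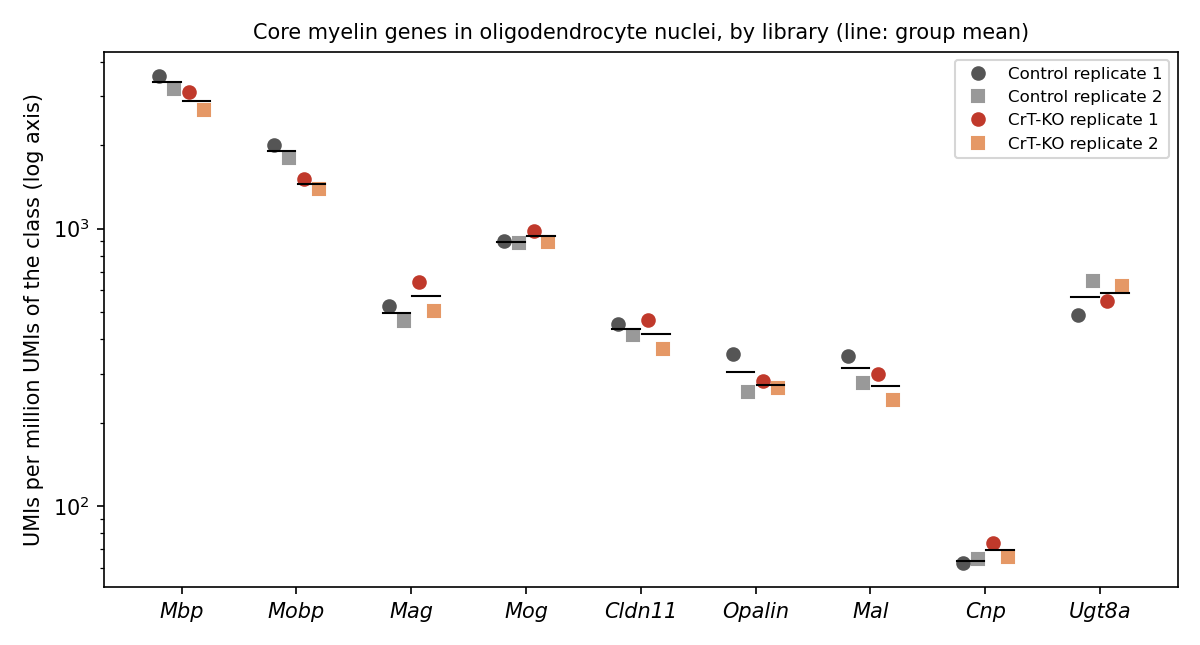
CPM of the oligodendrocyte sums on a log axis for the 9 core myelin genes, with 1 point per library (grey for control, red and orange for CrT-KO) and a line at each group mean. The groups separate downward for *Mobp* (2006 and 1802 against 1506 and 1385) and *Mbp*, and the points of *Opalin*, *Mal* and *Ugt8a* interleave.

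The other members showed smaller or mixed differences. *Mag* stood at 526 and 463 CPM in controls, against 641 and 504 in CrT-KO, a log2 difference of 0.19 (SE 0.12, edgeR adjusted p = 0.774), with 1 CrT-KO library between the controls and a range of 0.033 to 0.33 with each library left out in turn. *Mog* stood at 903 and 886 against 985 and 897, with a log2 difference of 0.05 (SE 0.11). *Cnp* stood at 62.6 and 64.4 against 73.3 and 65.3, the only member with both CrT-KO libraries above both controls, from 95 to 135 UMIs a library. *Mal* stood at 348 and 279 against 300 and 242, with a log2 difference of -0.23 (SE 0.13), and *Opalin* at 353 and 257 against 281 and 266, with a log2 difference of -0.17 (SE 0.13). *Cldn11* and *Ugt8a* had log2 differences of -0.08 (SE 0.12) and 0.02 (SE 0.13). These 4 genes overlapped between the groups.

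Among all 8942 genes tested in oligodendrocytes, 38 (0.425%) were called at an adjusted p under 0.1, against 0 of the 9 members. DESeq2 called 0 of the 9 and 0 genes in all. In edgeR 639 genes (7.15%) had an unadjusted p under 0.05, among them *Mobp* and *Mbp*. The median log2 difference of the members was -0.08, beside -0.0036 over all genes tested, and 5 of 9 were negative, beside 50.5% of all genes. Both CrT-KO libraries lay below both controls for 2 of 9 members, where 16.0% of all genes tested did so, and above for 1 of 9, where 20.5% did so. *Mobp* ranked 67 by abundance in this class, and 7.65% of the genes had a lower log2 difference.

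The call on *Mobp* depended on the settings, among them the library and the gene filter. Without Control replicate 2 it was called, with a log2 difference of -0.49 and an edgeR adjusted p of 0.0634, and with no filter on low counts its adjusted p was 0.0139. The adjusted p was 0.531 without Control replicate 1 and 0.691 in DESeq2, and the log2 difference stayed between -0.34 and -0.49 with each library left out in turn. A rank-sum test that counts nuclei as replicates called *Mobp* and *Mbp* among 4.81% of 2414 genes in oligodendrocytes, and in excitatory nuclei, where *Mbp* alone of the members was frequent enough to test, it called 12.7% of 6452 genes without *Mbp*. Summed markers of excitatory neurons moved with the groups in the same nuclei, at 639 and 660 CPM in controls, against 829 and 690 in CrT-KO, with 9 of 15 markers above both controls and 1 below. Summed astrocyte markers stood at 396 and 418 against 530 and 502 (7 of 15 above, 1 below), and summed inhibitory markers at 3938 and 3906 against 3450 and 3514 (0 of 21 above, 6 below). The oligodendrocyte markers themselves summed to 26660 and 25230 against 24020 and 24920 (5 of 23 above, 7 below). No excitatory, inhibitory or astrocyte marker was at 0 in all libraries, and the part of these levels in the result was not tested.

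Ratios within a library do not depend on the library's total. The UMIs of *Mog* per UMI of *Mobp* in oligodendrocytes were 0.450 and 0.491 in controls, against 0.654 and 0.648 in CrT-KO. *Mobp* made up 23.1% and 22.6% of the UMIs of the 9 genes in controls, against 19.0% and 19.7% in CrT-KO. The corresponding shares of *Mbp* were 40.9% and 39.8% against 39.3% and 38.1%. The group ranges of both shares and of the ratio did not overlap. These values restate counts of the same genes given above, and how often shares or ratios of other genes separate was not counted.

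The share of nuclei with at least 1 UMI was compared after each oligodendrocyte nucleus had been thinned to 500 UMIs, a depth that all of them reached. *Mobp* was seen in 57.6% and 54.4% of control nuclei and in 47.3% and 46.1% of CrT-KO nuclei at that depth, a difference of -9.31 points (exact permutation p = 0.33, the smallest possible), against 84.5% and 84.5% and 81.0% and 75.0% unthinned. In microglia, which are not known to make this gene, *Mobp* was seen in 0.888% ± 0.355 of control nuclei and 1.10% ± 0.117 of CrT-KO nuclei at 500 UMIs (SD, n = 2 each), with class medians of 890 to 1047 UMIs. The order of those means turned at 1000 UMIs (1.80% and 1.06%) and unthinned (1.96% and 1.61%), and the libraries overlapped each time. Only deeper nuclei reached 1000 UMIs, so 260 to 393 microglia and 138 to 375 oligodendrocytes a library were left out at that depth. *Mag* was seen in 22.8% ± 1.29 of control and 25.3% ± 1.83 of CrT-KO oligodendrocyte nuclei (SD, n = 2 each), with both CrT-KO libraries higher, but the groups overlapped at 1000 UMIs (38.7% ± 3.07 and 42.1% ± 4.46) and unthinned (48.3% ± 3.01 and 50.7% ± 9.11). *Mbp* was seen in 79.3% ± 3.18 and 74.6% ± 3.91, and its libraries overlapped.

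Oligodendrocytes split into 2 sub-clusters, again without the 9 genes. Sub-cluster 1 (3174 nuclei) was led by *Synpr*, with *Ptgds* and *Slc13a1* also among its leading genes, and sub-cluster 2 (1791 nuclei) by *Enpp6*, *Agmo* and *Tspan9*. The first clustering had set apart 489 nuclei led by *Enpp6*, with *Apod* and *Anln*, called the Enpp6 cluster here, and 488 of them lay in sub-cluster 2. A separate cluster of 156 nuclei carried *Bmp4*, *Gpr17* and *Neu4* and little *Pdgfra*, the marker of OPCs, and was named newly formed oligodendrocytes by a rule set after the clusters were seen. The Enpp6 cluster held 11.2% and 12.0% of oligodendrocytes in controls, against 9.19% and 6.97% in CrT-KO. Sub-cluster 2 as a whole held 38.0% and 38.7% in controls, against 30.0% and 36.5% in CrT-KO. Neither these shares nor their part in the oligodendrocyte sums was tested.

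The 9 genes did not share 1 pattern along these populations. OPCs, whose levels of the other members were low, held *Ugt8a* at 105 to 121 CPM, 36.2% to 38.6% of the count per nucleus in oligodendrocytes. *Mbp* was at 35.2 to 56.7 CPM in OPCs, and *Opalin* gave at most 1 UMI in any OPC library. In newly formed nuclei *Mbp* stood at 4152 to 5532, above its 2617 to 3533 in sub-cluster 1. *Mobp* stood at 1482 to 2319 in newly formed nuclei and at 1391 to 2120 in sub-cluster 1, which overlapped.

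*Opalin* differed most between the sub-clusters. It stood at 451 and 338 CPM in the controls and 334 and 344 in the CrT-KO libraries in sub-cluster 1, at 153 to 227 in sub-cluster 2 and at 34.9 to 119 in the Enpp6 cluster, where it rested on 12 to 31 UMIs a library. In newly formed nuclei *Opalin* was back at 293 to 481, so its order over these populations differed from that of *Mbp*. *Mal* stood at 279 to 403 in sub-cluster 1, 189 to 276 in sub-cluster 2 and 153 to 233 in the Enpp6 cluster, so the ranges of the sub-clusters nearly met, and that of the Enpp6 cluster, whose nuclei lie in sub-cluster 2, overlapped it. *Ugt8a* was higher in the Enpp6 cluster than in sub-cluster 1 within each library, although its ranges of 613 to 704 and 447 to 622 met, and *Mog* stood at 1011 to 1156 and 839 to 929. The clusters were made from other genes of the same nuclei, so these orders are descriptions without a test.

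**Figure D2:**
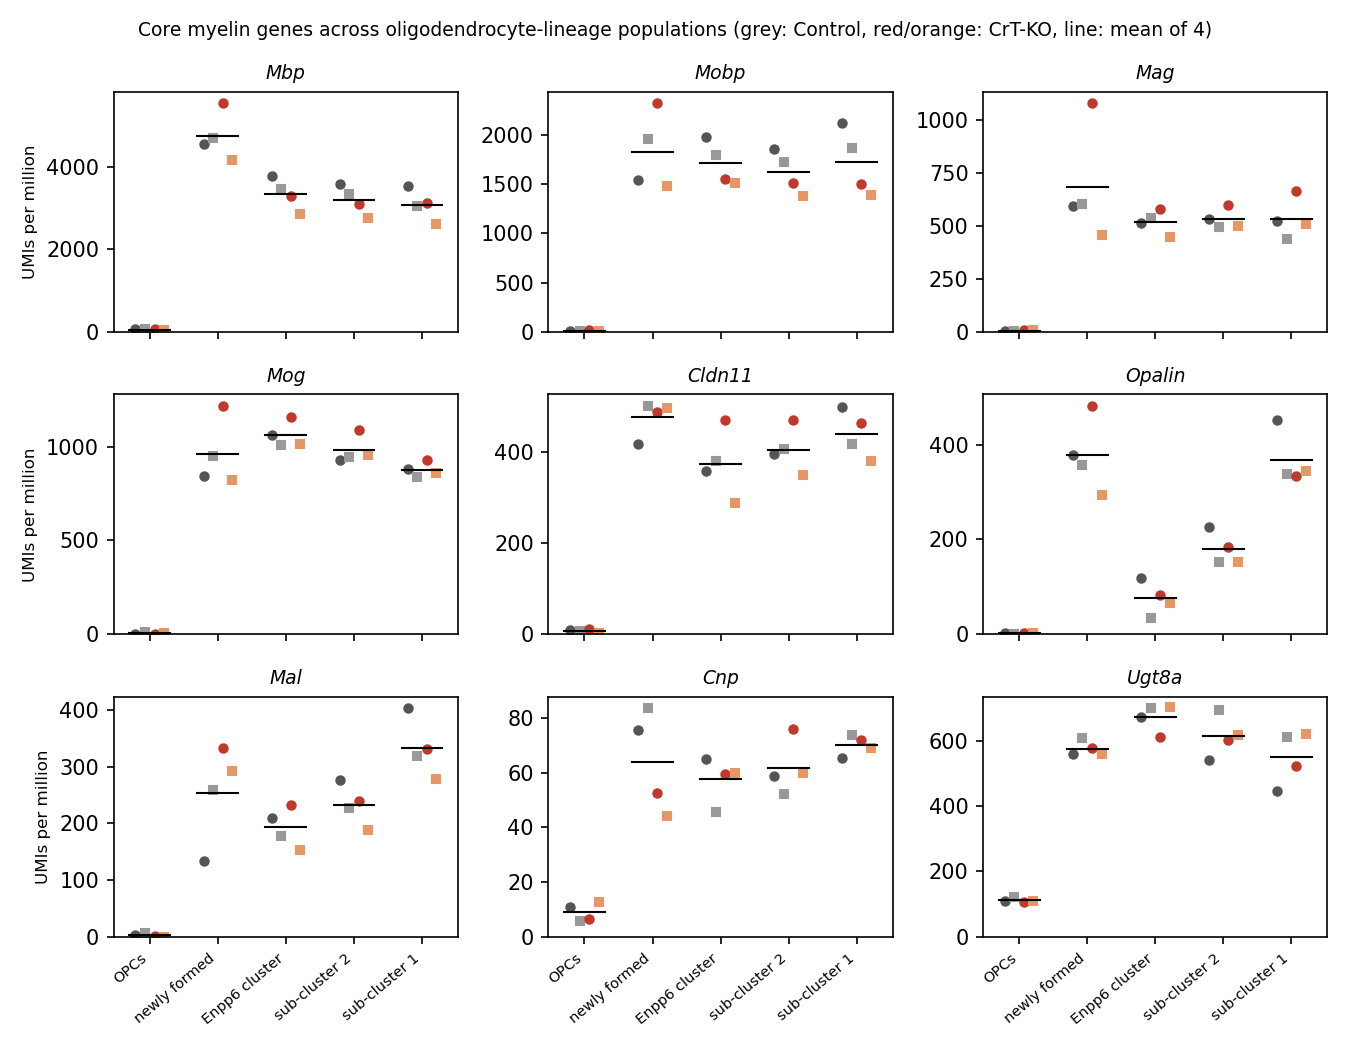
CPM for each core myelin gene (1 panel each) in OPCs, newly formed oligodendrocytes, the Enpp6 cluster and sub-clusters 2 and 1, with 1 point per library and a line at the mean of 4. *Opalin* is low in OPCs and in the Enpp6 cluster (34.9 to 119) and high in newly formed nuclei and sub-cluster 1, whereas *Ugt8a* is already at 105 to 121 in OPCs.

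Genotype was then compared within each population. *Mobp* stood at 2120 and 1862 CPM in controls, against 1503 and 1391 in CrT-KO in sub-cluster 1 (log2 difference -0.48, SE 0.12, edgeR adjusted p = 0.124), and at 1858 and 1725 against 1512 and 1377 in sub-cluster 2 (-0.34, SE 0.11, adjusted p = 0.552). It stood at 1978 and 1798 against 1554 and 1511 in the Enpp6 cluster (-0.31, SE 0.13, adjusted p = 0.776). Both CrT-KO libraries lay below both controls in all 3 populations, and the Enpp6 cluster shares its nuclei with the sub-clusters. The genotype difference of *Mobp* in sub-cluster 2 minus that in sub-cluster 1 was 0.14 (SE 0.08, edgeR adjusted p = 0.957), so the sub-clusters were not shown to differ.

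No member was called in either sub-cluster, where 25 of 7865 genes (0.318%) and 0 of 6671 genes (0%) were called by edgeR. DESeq2 called 0 genes in both, and the unadjusted edgeR p was under 0.05 for 553 genes (7.03%) and 447 genes (6.70%), among them *Mobp* in sub-cluster 1 and *Mobp* and *Mbp* in sub-cluster 2. Groups did not overlap downward for 1 of 9 members in sub-cluster 1, where 16.1% of all genes tested did so, and for 2 of 9 in sub-cluster 2, where 16.3% did so. Upward they did not overlap for 0 of 9 and for 2 of 9 (*Mog* and *Cnp*), where 20.2% and 20.2% did so. In the Enpp6 cluster edgeR called 0 of 3946 genes (0%) and DESeq2 called 0, while 250 genes (6.34%), *Mobp* among them, had an unadjusted edgeR p under 0.05. Groups there did not overlap downward for 2 of 9 members, where 17.5% of genes did so, and upward for 0 of 9, where 19.5% did so. No member was called for a difference between the sub-clusters, where edgeR called 1 of 8012 genes (0.0125%), DESeq2 called 0, and 441 had an unadjusted p under 0.05, none of them a member. In newly formed nuclei 8 members could be tested and 0 were called, as were 0 of all 2549 genes (0%), by edgeR and by DESeq2, and 107 genes (4.20%) had an unadjusted edgeR p under 0.05, none a member. Groups there did not overlap downward for 1 of 9 (*Cnp*, where 14.4% of genes did so) and upward for 1 of 9 (*Mal*, where 16.7% did so). *Mobp* there stood at 1538 and 1961 in controls, against 2319 and 1482 in CrT-KO, from 101 to 281 UMIs a library and 23 to 55 nuclei, and the groups overlapped.

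**Figure D3:**
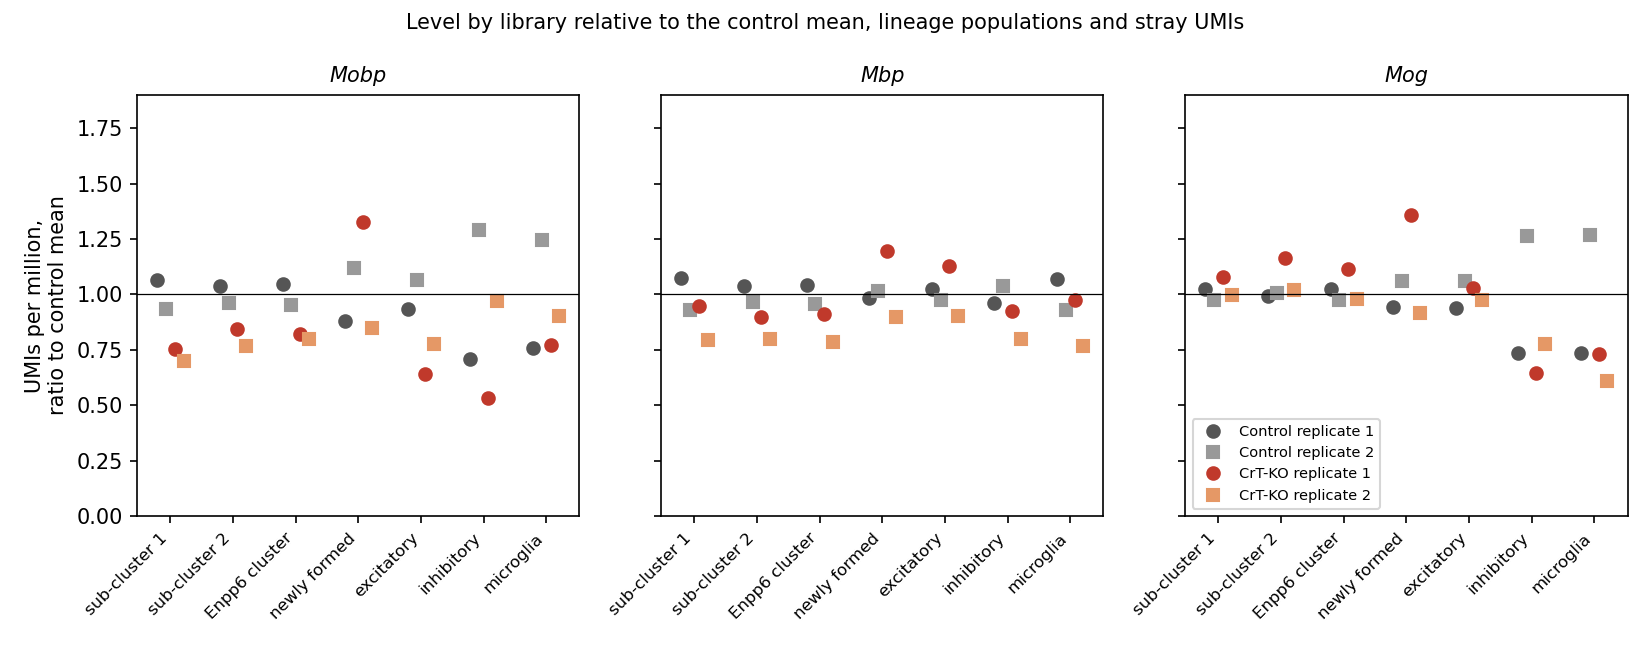
CPM of *Mobp*, *Mbp* and *Mog* in each library divided by the control mean of the same population. Shown are 4 oligodendrocyte populations and 3 classes outside that lineage, whose UMIs are called stray whatever their source. For *Mobp* both CrT-KO points lie below both control points in sub-clusters 1 and 2, the Enpp6 cluster and excitatory nuclei, and the points interleave in newly formed, inhibitory and microglial nuclei.

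Other genes of the myelin program were read from 3 lists in oligodendrocytes. Over all genes tested there, edgeR called 0.425%, 7.15% had an unadjusted edgeR p under 0.05, and the median log2 difference was -0.0036. Of 29 other structural myelin genes 27 could be tested and 0 were called by edgeR, 4 had an unadjusted p under 0.05 with lower levels in CrT-KO, and the median log2 difference was -0.08. The largest differences in this list were *Cryab*, a small heat shock protein of oligodendrocytes, at 40.9 and 89.1 CPM in controls, against 33.9 and 40.2 in CrT-KO (log2 difference -0.87, SE 0.24, edgeR adjusted p = 0.150), and *Pllp*, a myelin proteolipid (0.30, SE 0.16, adjusted p = 0.712). *Cryab* was high in 1 control library only.

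Of 28 genes of myelin lipid synthesis 27 could be tested, and edgeR called 1 higher in CrT-KO and 0 lower. The largest difference downward in this list was *Scd2*, a fatty acid desaturase, at 300 and 249 CPM against 213 and 185 (log2 difference -0.48, SE 0.12, adjusted p = 0.113). The median of the list was 0.04, and 4 genes had an unadjusted p under 0.05, 1 with higher and 3 with lower levels in CrT-KO.

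Of 22 transcription factors of the lineage 18 could be tested, and 1 was called. *Sox10*, which drives myelin genes, rose from 129 and 176 CPM in controls to 275 and 209 in CrT-KO (log2 difference 0.63, SE 0.14, edgeR adjusted p = 0.0499). The largest difference downward was *Olig1*, at 21.1 and 16.2 against 7.52 and 9.91 (log2 difference -1.08, SE 0.35, adjusted p = 0.264), and *Myrf*, the regulator of mature oligodendrocytes, had a log2 difference of 0.05 (SE 0.12). The median of the list was -0.01. *Sox10* was not called without CrT-KO replicate 1, without Control replicate 1, in DESeq2 or with the newly formed nuclei added to the class.

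Of the member UMIs in the nuclei kept of a library, doublets left out, 62.0% to 71.3% lay in oligodendrocytes. The others were counted in newly formed or unnamed nuclei, or in nuclei of other classes. UMIs in classes outside the oligodendrocyte lineage are called stray here, whatever their source. In microglia *Mobp* was counted 1.49 to 2.60 times per 100 nuclei, against 176 to 279 in oligodendrocytes, which is 0.533% to 0.996% of the oligodendrocyte level. *Mog* was at 0.739% to 1.52% of its oligodendrocyte level in microglia, and *Mag* stood higher, at 2.11% to 2.91%. Free RNA in the suspension can reach nuclei of every class in droplet data, and its part in these counts was not tested.

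*Mbp* was the most frequent member in neurons. It was counted 55.7 to 83.3 times per 100 excitatory nuclei and 23.5 to 32.5 times per 100 inhibitory nuclei, against 6.24 to 9.31 per 100 microglial nuclei, which hold fewer UMIs. Per total UMIs of the class it stood at 72.5 to 90.4 CPM, 41.0 to 53.2 CPM and 63.4 to 88.5 CPM in the same order, so excitatory and microglial nuclei overlapped and inhibitory nuclei were lower. Per UMI of *Mobp* there were 13.2 to 25.3 of *Mbp* in excitatory nuclei, 1.76 to 2.07 in oligodendrocytes and 3.25 to 6.14 in microglia. A UMI of *Mbp* was found in 35.7% to 43.6% of excitatory nuclei and in 5.73% to 8.07% of microglia, whose median depths were 7124 to 8567 and 890 to 1047 UMIs. At 500 UMIs per nucleus the group means for *Mbp* were 3.84% and 3.68% of excitatory nuclei (control and CrT-KO), 2.65% and 2.00% of inhibitory nuclei, and 4.23% and 3.55% of microglia. The *Mbp* locus (chr18:82475146-82585637, plus strand, 110 kb) is known to hold another, longer transcription unit, golli, that neurons also use, and the counts give 1 total for both.

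*Cnp* and *Ugt8a* were higher per excitatory nucleus than most other members, relative to oligodendrocytes, which had far fewer UMIs per nucleus. *Cnp* per excitatory nucleus was 36.2% to 57.7% of its level per oligodendrocyte, where *Mag* was at 1.20% to 1.37%. Per total UMIs it was at 3.92 to 5.85 CPM in excitatory nuclei and 62.6 to 73.3 CPM in oligodendrocytes. *Dnajc7*, which overlaps *Cnp* on the opposite strand, was counted at 82.4 to 134 CPM in excitatory, inhibitory and oligodendrocyte nuclei, and its part in the *Cnp* counts was not tested. *Ugt8a* per excitatory nucleus was 8.25% to 10.5% of its level per oligodendrocyte, and stood at 8.30 to 8.94 CPM against 488 to 648 CPM. *Mal* reached 11, 6 and 2 UMIs in the endothelial and pericyte nuclei of 3 libraries, up to 29.9% of its count per nucleus in oligodendrocytes, from 39 to 91 nuclei a library.

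**Figure D4:**
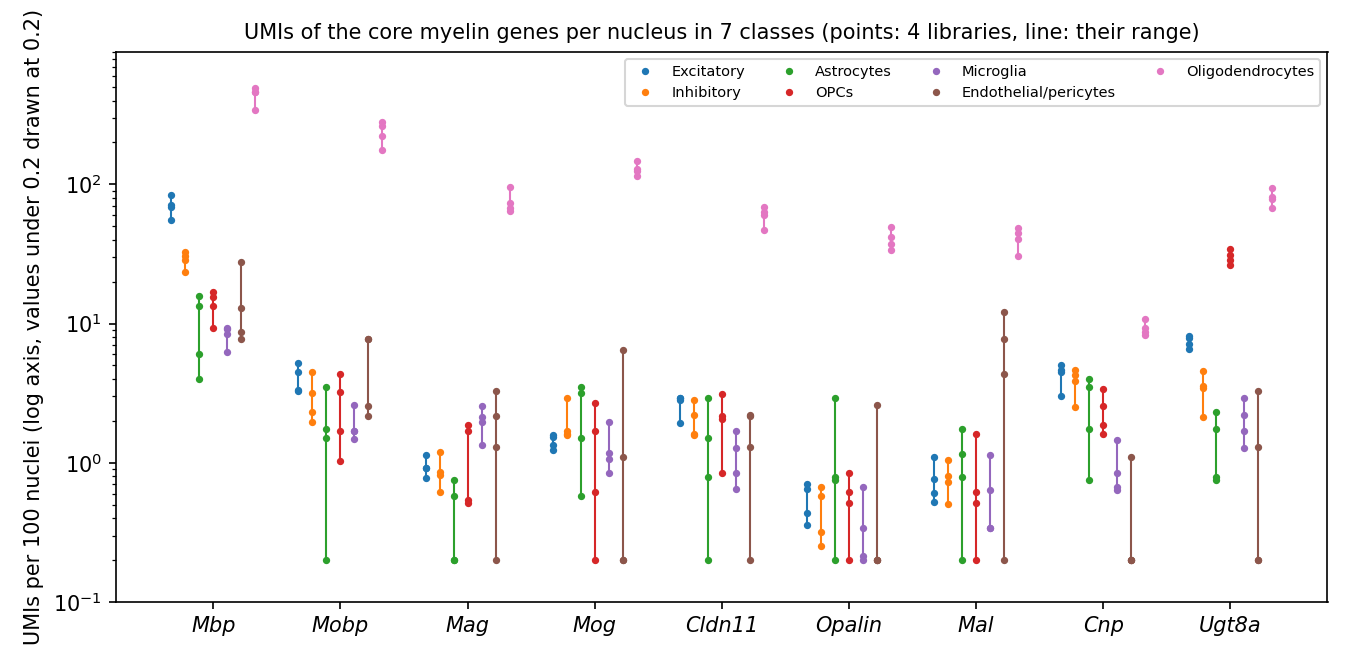
UMIs of each core myelin gene per 100 nuclei of 7 classes on a log axis (1 point per library, the line spans the 4 libraries, and values under 0.2 are drawn at 0.2). *Mobp*, *Mag*, *Mog* and *Opalin* are low outside oligodendrocytes, *Mbp* stays at 55.7 to 83.3 per 100 excitatory nuclei, and *Cnp* per excitatory nucleus is at 36.2% to 57.7% of its level per oligodendrocyte. The counts are not scaled for depth, and neurons hold more UMIs per nucleus.

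Between genotypes, no member was called in any class outside oligodendrocytes. Of the members 9 could be tested in excitatory neurons, 9 in inhibitory neurons, 4 in microglia, 2 in OPCs, 1 in astrocytes and 0 in endothelial cells and pericytes. EdgeR called 30 of 13661 genes (0.220%), 8 of 12826 (0.0624%), 1 of 7733 (0.0129%), 0 of 5830 (0%), 1 of 5026 (0.0199%) and 0 of 2414 (0%) in the same order, and DESeq2 called 66, 4, 24, 0, 1 and 0 genes, none a member. *Mobp* in excitatory nuclei stood at 5.21 and 5.93 CPM in controls, against 3.57 and 4.31 in CrT-KO (log2 difference -0.46, SE 0.18, edgeR adjusted p = 0.475), and *Mbp* in astrocytes at 71.0 and 51.6 against 15.0 and 25.7 (-1.48, SE 0.49, adjusted p = 1.00), from 5 to 23 UMIs a library. These were the members with an unadjusted p under 0.05 in these 6 classes, where the share of genes with one was 8.76% in excitatory neurons, 5.04% in inhibitory neurons, 7.45% in microglia, 5.18% (302 genes) in OPCs, 4.50% in astrocytes and 3.19% (77 genes) in endothelial cells and pericytes. The largest *Mbp* count in 1 astrocyte nucleus was 4 in Control replicate 1, 10 in Control replicate 2 and 1 in each CrT-KO library.

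Both CrT-KO libraries lay below both controls for 4 of 9 members in excitatory nuclei (*Mobp*, *Cldn11*, *Opalin* and *Cnp*), where 28.4% of all genes tested did so, and for 3 of 9 in inhibitory nuclei (*Mbp*, *Mag* and *Mal*), where 18.6% did so. They lay above for 0 of 9 in both, where 11.6% and 13.8% of genes did so. *Mbp* in excitatory nuclei overlapped, at 82.3 and 78.1 in controls, against 90.4 and 72.5 in CrT-KO. Its genotype difference in excitatory nuclei minus that in oligodendrocytes was 0.28 on the log2 scale (SE 0.11, unadjusted p = 0.00976, edgeR adjusted p = 0.569), and that of *Mobp* was -0.07 (SE 0.15). No member was called in this comparison, in which edgeR called 42 of 13417 genes (0.313%), DESeq2 called 5, and 866 had an unadjusted p under 0.05, *Mbp* the one member among them.

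Over the sum of all named nuclei, *Mobp* stood at 76.8 and 88.4 CPM in controls, against 50.4 and 62.6 in CrT-KO (log2 difference -0.51, SE 0.12, edgeR adjusted p = 0.567). Oligodendrocytes made up 13.6% and 16.3% of the nuclei kept in controls, against 12.0% and 15.8% in CrT-KO, and in such a sum fewer oligodendrocytes and less RNA per oligodendrocyte cannot be told apart. In that sum edgeR called 0 of 9 members and 5 of 14858 genes (0.0337%), 920 genes (6.19%) had an unadjusted p under 0.05, *Mobp*, *Mbp* and *Mal* among them, and both CrT-KO libraries lay below both controls for 6 of 9 members, where 27.2% of genes did so, and above for 0 of 9, where 10.6% did so. The summed UMIs of the 9 genes in oligodendrocytes stood at 8694 and 7987 CPM in controls, against 7914 and 7024 in CrT-KO, 10.5% lower by the means (exact permutation p = 0.33, the smallest possible). With each library left out in turn the difference ran from -5.11% to -15.8%, and the groups overlapped with doublets kept (-7.69%, exact permutation p = 0.67) and with newly formed nuclei added (-9.34%, exact permutation p = 0.67). Without *Mbp* the sum stood at 5140 and 4813 against 4803 and 4347.

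Genes most like the members were found by Pearson's r with the mean of the members' log2 CPM over 7 classes in 4 libraries, 28 points that share libraries and depth. Only genes with enough counts in oligodendrocytes, where the members are high, were compared. Genes outside the members with high values were *St18* (0.952), *Arid4b* (0.950), *Kif13b* (0.944) and *Zdhhc20* (0.941). Within the members, each of which is part of the mean it was compared with, r ran from 0.767 for *Cnp* and 0.840 for *Ugt8a* to 0.955 for *Cldn11*. Over the 2 sub-clusters in 4 libraries, 8 points, *Epha4* (0.979) and *Ttll7* (0.977) came first, followed by *Ntm*, *Lrrc28* and *Srrm2*. The members did not all go with their own mean there, as r ran from 0.964 for *Mal*, 0.858 for *Opalin* and 0.842 for *Cldn11* down to -0.31 for *Mog* and -0.75 for *Ugt8a*.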

How the data were processed

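Nuclei of 4 cortices were counted by the authors with Cell Ranger 3.1.0 on GRCm38 (mm10), with whole gene bodies as exons, and the deposited values are raw UMI counts per gene and called nucleus. Scrublet doublets were removed, and counts were scaled to 10000, logged and clustered without the 9 genes (scanpy 1.11.5, 3000 variable genes, 30 components, 20 neighbours, Leiden resolution 1.0). Clusters were named from marker lists. Sums of UMIs over each population of a library were tested with edgeR 4.0.16 (quasi-likelihood, TMM, filter of 10 counts and 15 in total, Benjamini-Hochberg adjustment over all genes, threshold 0.1), without covariates, and interactions carried the library as a block. The script was tested on simulated data. CPM use no TMM factors. Named genes were the 9 members in every class, called pathway genes, the largest rise and fall in each pathway list, the 5 genes most like the members' mean, and *Slc6a8*. *Myrf* and *Dnajc7* were added after their values were seen, and some genes that the rule names are not reported here. Members, lists and comparisons were chosen with earlier results of these data known. Alternatives were RLE normalization, DESeq2 1.42.0, no filter, a replicate block, each library left out, doublets kept, members kept in clustering, resolution 0.5, a threshold of 0.05 and a rank-sum test over nuclei. SEs and p-values of edgeR and DESeq2 rest on 2 animals a group and on dispersions estimated with information from all genes. Those of the interactions rest on the spread left within libraries, and the rank-sum p-values on the spread between nuclei.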

Additional observations from a re-analysis of the deposited data

Results flagged for a closer look

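A gene was singled out where both CrT-KO libraries lay below both controls in 1 population and above both in another, with at least 3 UMIs in every library, unless that difference had been tested. The populations were the 7 classes, newly formed oligodendrocytes, sub-clusters 1 and 2 and the Enpp6 cluster. Such a pattern was seen for *Mal*, whose CrT-KO mean differed from the control mean by -35.9% in inhibitory nuclei (9 to 22 UMIs a library) and by 59.6% in newly formed oligodendrocytes (20 to 38 UMIs). It was also seen for *Cnp*, at -39.5% in newly formed oligodendrocytes (3 to 13 UMIs) and -18.3% in excitatory nuclei (109 to 170 UMIs), against 9.21% in oligodendrocytes (95 to 135 UMIs) and 22.4% in sub-cluster 2 (39 to 48 UMIs). For *Mog* it was -32.9% in microglia (5 to 12 UMIs, with the nearest libraries at 10.29 and 10.25 CPM) and 9.12% in sub-cluster 2 (602 to 868 UMIs). For *Cnp* the difference between excitatory nuclei and oligodendrocytes was tested (-0.36 on the log2 scale, SE 0.22, edgeR adjusted p = 0.835), and the other differences were not tested. How often other genes show such an opposite pattern was not counted, so these members are not shown to stand out. Each side alone was common where it was counted. The share of genes below ran from 14.4% (newly formed oligodendrocytes) to 28.4% (excitatory nuclei). The share above ran from 11.6% (excitatory nuclei) to 20.5% (oligodendrocytes). No such share was counted in microglia, on which the *Mog* pattern rests.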

How the results depend on the processing

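The count of members called in oligodendrocytes was 0 under every other alternative and 1 with no filter on low counts, without Control replicate 2 (0 to 1 with a library left out) and with the replicate block, the called member each time being *Mobp*, and it was 2 with the rank-sum test over nuclei, which counts nuclei as replicates and called 4.81% of genes. *Mobp* had log2 differences of -0.43 (no filter), -0.42 (replicate block, edgeR adjusted p = 0.00826), -0.38 (rank-sum) and -0.34 to -0.49 with a library left out, and the rank-sum difference of *Mbp* was -0.21. Samples shared only a replicate number. With that number as a block 1 member was called in excitatory neurons (*Mobp*), 1 in sub-cluster 1 (*Mobp*) and 2 in sub-cluster 2 (*Mobp* and *Mbp*), and 1 in sub-cluster 1 with no filter and without Control replicate 2 (0 to 1). Deviations of same-numbered libraries correlated at 0.10 in oligodendrocytes and 0.16 in excitatory neurons. The log2 difference changed sign, uncalled, for *Cldn11* (0.012 with doublets kept, -0.23 to 0.064 with a library left out), *Opalin* (-0.39 to 0.067) and *Ugt8a* (-0.17 to 0.25). Pathway genes called in oligodendrocytes numbered 4 with RLE normalization, no filter or the block, 1 with doublets kept or a threshold of 0.05, 0 in DESeq2 and with newly formed nuclei added (an alternative chosen after seeing the data), and 0 to 3 with a library left out. The summed members differed by -2.23% in excitatory neurons (-13.2% without *Mbp*), by -53.3% in astrocytes (-39.2% without *Mbp*, -22.8% with doublets kept) and by 2.08% in endothelial cells and pericytes (-39.8% to 234% with a library left out). The causes were not tested. Depth limits the members in rare classes, where a library held as few as 0 UMIs of a gene.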
